A study of Mus musculus with 12 samples.

Results

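Activation of a T cell through its antigen receptor is held in check by a small set of enzymes that undo or prevent tyrosine phosphorylation, and by a lipid phosphatase that removes the product of PI3-kinase. RNA of 9 genes for such enzymes, or for proteins that act with or against them, was followed here in mouse naïve CD8+ T cells. These were Ptpn6 (SHP-1), Ptpn11 (SHP-2), Inpp5d (SHIP-1), Csk, Pag1, Ptpn22, Ptpn2, Ptpn7 and Ptprc (CD45). They were taken by symbol from the deposited count table, in which each of the 9 was found among 14323 genes. The list includes SHP-1, SHP-2 and Csk, the enzymes that the inhibitory collagen receptor LAIR-1 is known to bring to the membrane.

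The cells were gated as CD44- and CD62L+ among splenocytes that carried CD8 and TCRβ. They came from 3 mice of wild type genotype. The mice used throughout the work were adult and of the C57BL/6N strain, and the age and sex of the sequenced mice are not given in the sources used here. Wells of 100000 cells were cultured for 6 h in 4 conditions. Unstimulated cells met isotype control together with either more isotype control or anti-LAIR-1 at 2.5 µg/ml, the agonistic antibody 2C7, coated on the plate. Stimulated cells met coated anti-CD3 (clone 145-2C11) at 2.5 µg/ml together with isotype control or with anti-LAIR-1. Each condition has 3 libraries, 1 per mouse, and the same 3 mice gave each of the 4 conditions. No other stimulus, such as anti-CD28, is named for any of the wells.

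In resting T cells the kinase Lck is kept partly inactive by Csk, which phosphorylates its C-terminal tyrosine. The transmembrane phosphatase CD45 removes that phosphate. Pag1 is a membrane adaptor that can hold Csk close to its substrate, and the phosphatase encoded by Ptpn22 binds Csk and removes activating phosphates from Lck and ZAP-70. SHP-1 and SHP-2 bind phosphorylated inhibitory motifs in receptor tails, TC-PTP (Ptpn2) acts on Lck, Fyn and JAK-STAT proteins, and Ptpn7 inactivates MAP kinases.

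The reads were counted near the polyadenylated ends of transcripts by an adapted CEL-seq protocol, and values are given as CPM, counts scaled to a common library size after TMM normalization. Library totals ran from 1781218 to 7725545 counts, and 3 counts were worth 0.405 to 1.62 CPM on this scale, limits that cover counting error only. Of the 6 activation genes listed to check the stimulation, each was higher with anti-CD3, both with isotype and with anti-LAIR-1. With anti-CD3 present, Ifng (log2 fold change -1.44) and Il2ra (-0.49) were lower with anti-LAIR-1 than with isotype. Myc (-0.28), Cd69 (-0.07), Nr4a1 (-0.05) and Egr2 (0.12) did not pass an adjusted p of 0.05 in edgeR in that comparison. Mitochondrial genes took 17.7 to 20.9% of counts without and 11.5 to 13.2% with anti-CD3, and their part in the results was not tested. The 8 markers of CD8+ T cells summed to 5305 to 5890 CPM in unstimulated libraries and to 1992 to 2634 CPM in stimulated ones. Of 6 B cell markers, 5 could be read and summed to 1.08 to 10.3 CPM per library. Their median sum was 6.62 CPM in unstimulated isotype libraries, 5.84 with anti-LAIR-1 alone, 2.89 with anti-CD3 and 1.52 with both antibodies. Of 7 myeloid markers, 6 could be read and summed to 28.4 to 63.6 CPM, of which those other than Cst3 reached at most 3.78 CPM each. Csf1r was at 0 in each condition but unstimulated isotype. The readable markers of NK cells (2 of 4), CD4 T cells (Cd4) and erythroid cells and platelets (4 of 8) summed per list to at most 1.06, 1.64 and 3.72 CPM. In such bulk samples, fewer cells of a type and less RNA per cell cannot be told apart.

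The genomic stretches before the starts of 4 of the 9 genes are shown as examples, chosen after the values and motif matches were seen: Csk and Inpp5d, which fell with anti-CD3 in the isotype libraries, and Ptpn7 and Ptpn11, which rose. Each is the 250 bases upstream of the gene start (RefSeq, GRCm38.p6), 5′ to 3′ on the strand of the gene, with matches to the searched motifs in capitals. Csk lies on the minus strand of chromosome 9 (57626646 to 57653631), Inpp5d on the plus strand of chromosome 1 (87620312 to 87720507), Ptpn7 on the plus strand of chromosome 1 (135132700 to 135145317) and Ptpn11 on the minus strand of chromosome 5 (121130533 to 121191397).
Csk, chr9:57653632-57653881, minus strand: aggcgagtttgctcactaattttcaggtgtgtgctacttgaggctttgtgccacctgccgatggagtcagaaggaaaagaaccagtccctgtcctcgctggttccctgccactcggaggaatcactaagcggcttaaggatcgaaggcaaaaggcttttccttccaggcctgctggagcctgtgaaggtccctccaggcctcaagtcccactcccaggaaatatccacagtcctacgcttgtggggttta
Inpp5d, chr1:87620062-87620311, plus strand: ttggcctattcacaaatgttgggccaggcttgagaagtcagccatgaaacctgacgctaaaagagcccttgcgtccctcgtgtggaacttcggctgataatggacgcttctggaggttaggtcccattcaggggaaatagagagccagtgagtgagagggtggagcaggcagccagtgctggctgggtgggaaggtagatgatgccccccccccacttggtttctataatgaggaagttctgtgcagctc
Ptpn7, chr1:135132450-135132699, plus strand: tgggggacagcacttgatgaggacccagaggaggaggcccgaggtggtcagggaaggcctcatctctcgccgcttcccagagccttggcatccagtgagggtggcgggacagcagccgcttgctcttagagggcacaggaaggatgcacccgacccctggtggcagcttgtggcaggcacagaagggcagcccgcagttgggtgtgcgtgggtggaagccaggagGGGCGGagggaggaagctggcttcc
Ptpn11, chr5:121191398-121191647, minus strand: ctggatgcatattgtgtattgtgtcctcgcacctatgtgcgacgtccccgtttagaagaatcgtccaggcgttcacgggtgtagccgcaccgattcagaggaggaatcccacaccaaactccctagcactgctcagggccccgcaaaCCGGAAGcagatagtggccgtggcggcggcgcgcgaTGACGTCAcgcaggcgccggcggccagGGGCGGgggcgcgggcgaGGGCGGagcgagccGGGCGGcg
The motifs, searched on both strands, were AP-1 (TGANTCA), the NFAT core (TGGAAA), CRE (TGACGTCA), EGR (GCGTGGGCG), ETS (CCGGAAG), RUNX (TGTGGTT), FOXO (TGTTTAC) and the GC box of Sp and KLF factors (GGGCGG). The stretch before Ptpn11 held a CRE 67 bases and an ETS motif 103 bases before the start, and GC boxes 40, 22 and 8 bases before it, none of which overlapped. The stretch before Ptpn7 held a GC box 25 bases before the start, and the window of a second Ptpn7 start in the promoter table, not shown, held one 28 bases before it. The stretches before Csk and Inpp5d, and that of a second Csk start, held none of the 8 letter strings, which says only that these letters are not in these windows. Over 32851 promoter windows of the same length, a CRE was present in 1.55%, an ETS motif in 6.91%, a GC box in 32.7%, an AP-1 motif in 6.75%, the NFAT core in 18.6%, RUNX in 4.40%, FOXO in 3.17% and EGR in 0.536%. Of the 9 genes, 7 had an entry in the promoter table, and Pag1 and Ptpn2 had none. Among the other 3 genes with an entry, the window of Ptpn6 held 1 NFAT core and 5 GC boxes, 2 of which overlapped, and the windows of Ptpn22 and Ptprc, 2 for each, held none.

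To see how stimulation through CD3 alone acted on these genes, anti-CD3 with isotype was compared with no stimulation with isotype. Of the 9 genes, 4 rose (Ptpn7, Ptpn2, Ptpn22 and Ptpn11), 3 fell (Inpp5d, Pag1 and Csk), and Ptpn6 and Ptprc did not pass an adjusted p-value of 0.05 (quasi-likelihood test of edgeR, adjusted over all genes tested after Benjamini and Hochberg). In this comparison 71.3% of 8433 protein-coding genes passed, 35.6% higher and 35.7% lower, so that 7 of 9 is close to the share of all genes. The libraries of both groups did not overlap for 8 of the 9 genes, 5 higher and 3 lower, beside 38.0% of protein-coding genes higher and 35.6% lower. The median log2 fold change of the 9 genes was 0.16, and that of all protein-coding genes was -0.01. The plot of the levels by library shows the spread behind each of these changes. On GRCm38, the genes whose upstream sequence is not shown lie on chromosome 6 (Ptpn6, 124720707 to 124738714, minus strand), chromosome 3 (Pag1, 9687479 to 9833679, minus strand, and Ptpn22, 103859795 to 103912247, plus strand), chromosome 18 (Ptpn2, 67665511 to 67724595, minus strand) and chromosome 1 (Ptprc, 138062861 to 138175708, minus strand).

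**Figure D1:**
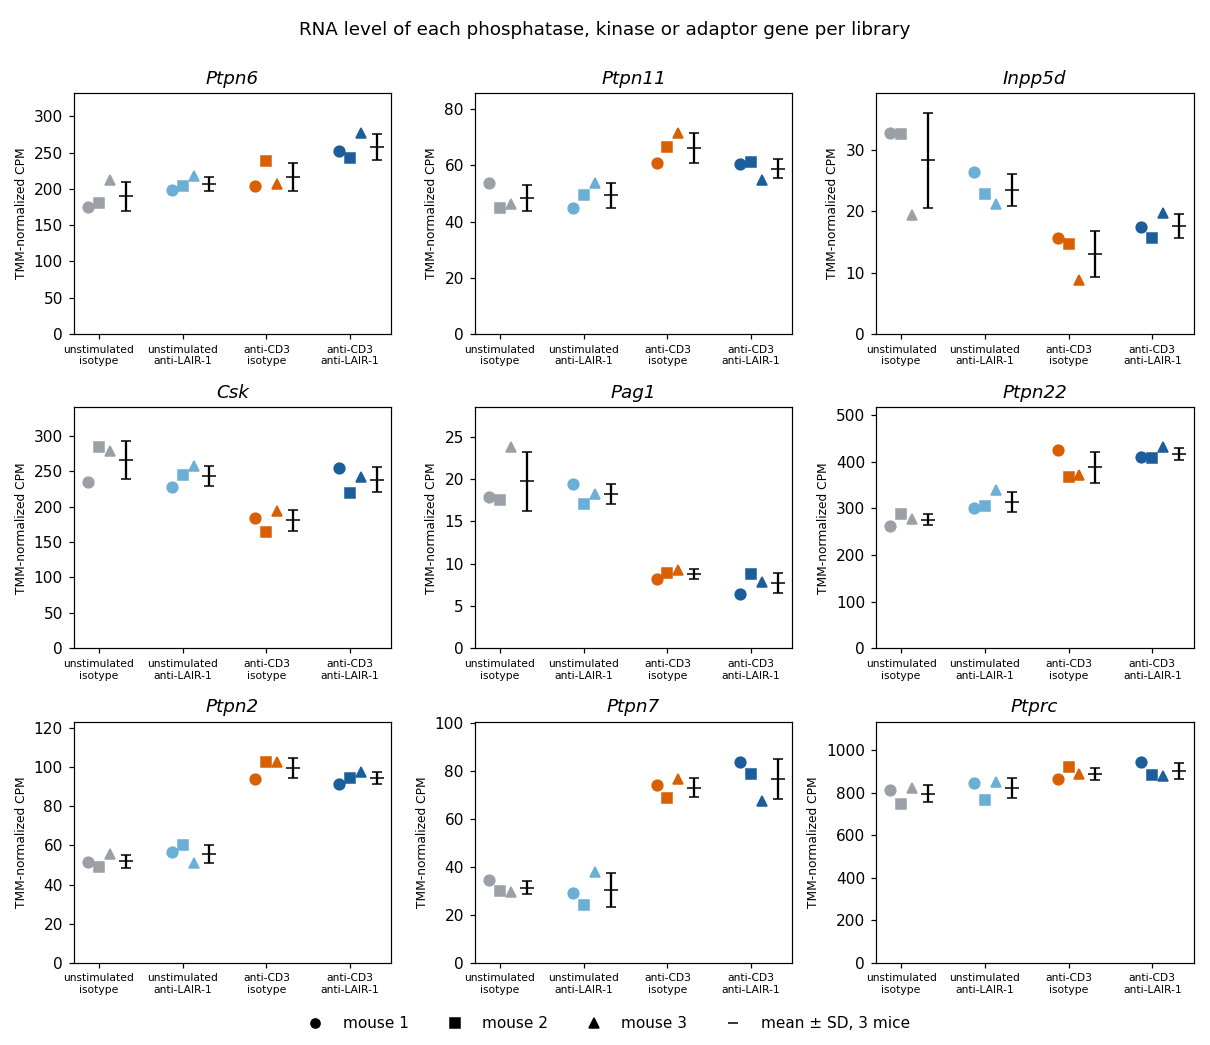
TMM-normalized CPM (vertical axes, from 0) of each of the 9 genes in the 4 conditions; each symbol is the library of 1 mouse, and the bar gives the mean ± SD of 3 mice. Csk was 164 to 194 CPM with anti-CD3 and isotype, below each library of the other conditions, while Ptpn7 and Ptpn2 were higher in every stimulated library than in every unstimulated one.

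The rises were largest for the phosphatases of MAP kinases and of JAK-STAT signalling. Ptpn7 RNA was 34.5, 29.8 and 29.7 CPM in the unstimulated isotype libraries of mice 1, 2 and 3, and 74.0, 68.6 and 76.4 CPM with anti-CD3 and isotype. The groups were well apart, with a log2 fold change of 1.18 (SE 0.14, edgeR adjusted p = 6.31e-08). Ptpn2 RNA was 51.3, 49.0 and 55.6 CPM without stimulation and 93.9, 102 and 103 CPM with it, again without overlap. Its log2 fold change was 0.92 (SE 0.12, edgeR adjusted p = 3.98e-07).

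Ptpn22, the phosphatase that binds Csk, was 263, 287 and 277 CPM in unstimulated isotype libraries and 426, 366 and 372 CPM with anti-CD3. It rose by 0.46 on the log2 scale (SE 0.09, edgeR adjusted p = 0.000118), and each stimulated library was above each unstimulated one. Ptpn11, which encodes SHP-2, was 53.7, 44.95 and 46.4 CPM without stimulation and 60.7, 66.5 and 71.6 CPM with it. Its rise of 0.42 (SE 0.13, edgeR adjusted p = 0.00697) was uneven between mice, at 0.18 in mouse 1, 0.56 in mouse 2 and 0.62 in mouse 3. With upper-quartile scaling, which moved the median of all protein-coding genes by -0.18 on the log2 scale in this comparison, Ptpn11 was at 0.24 with an adjusted p of 0.101 in edgeR.

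The genes that fell were the kinase Csk, its membrane anchor Pag1 and the lipid phosphatase SHIP-1. Inpp5d was 32.8, 32.7 and 19.4 CPM in the unstimulated isotype libraries and 15.7, 14.6 and 8.82 CPM with anti-CD3. Although the library of mouse 3 was the lowest in both groups, the groups did not overlap, and the log2 fold change was -1.21 (SE 0.24, edgeR adjusted p = 0.000109). Pag1 was 17.9, 17.6 and 23.7 CPM without stimulation and 8.15, 8.90 and 9.31 CPM with it. It had a log2 fold change of -1.17 (SE 0.23, edgeR adjusted p = 0.000112), and all 3 mice moved downward by similar amounts, from -0.95 to -1.31. Both genes had few reads, 36 to 129 counts per library for Inpp5d and 27 to 70 for Pag1, against 516 to 1884 for Csk.

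Csk was 235, 284 and 278 CPM in unstimulated isotype libraries and 184, 164 and 194 CPM with anti-CD3 and isotype. Its log2 fold change was -0.59 (SE 0.10, edgeR adjusted p = 2.16e-05), and the 3 mice differed by -0.36, -0.79 and -0.52. Inpp5d, Pag1 and Csk kept this call in each of 15 other settings.

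SHP-1 and CD45 RNA did not pass. Ptpn6 was 176, 181 and 213 CPM without stimulation and 204, 239 and 207 CPM with anti-CD3, and the groups overlapped. Its log2 fold change was 0.16, with a 95% interval of -0.05 to 0.38 (edgeR adjusted p = 0.164). Without the library of mouse 3 among the unstimulated isotype libraries, it was 0.24 with an edgeR adjusted p of 0.0494. Ptprc was 811, 748 and 824 CPM without stimulation and 864, 919 and 885 CPM with it, and its log2 fold change was 0.13, with a 95% interval of -0.04 to 0.30 (edgeR adjusted p = 0.152). DESeq2 gave Ptprc 0.19 with an adjusted p of 0.0310 (0.0853 with mice as a block), and upper-quartile scaling turned the sign of both genes, to -0.01 for Ptpn6 and -0.04 for Ptprc. Reads near the 3′ end do not separate the splice forms of Ptprc that distinguish naïve from activated T cells.

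Under anti-LAIR-1, the response to anti-CD3 was measured in 6 other libraries. Of the 9 genes, 4 were higher with anti-CD3 (Ptpn7, Ptpn2, Ptpn22 and Ptpn6) and 2 were lower (Pag1 and Inpp5d), where 72.8% of 8715 protein-coding genes passed, 36.8% higher and 36.0% lower. Csk, Ptpn11 and Ptprc did not pass. The groups did not overlap for 8 of the 9 genes, 6 higher and 2 lower, beside 38.0% of protein-coding genes higher and 36.9% lower. The plot of the anti-CD3 response sets the 2 sets of values side by side.

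**Figure D2:**
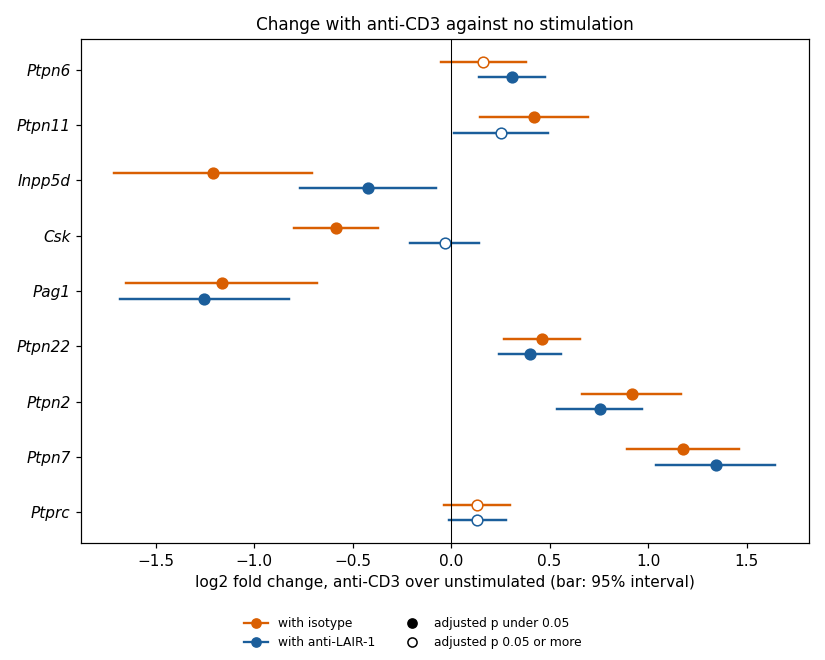
Log2 fold change of anti-CD3 over unstimulated (horizontal axis) for each of the 9 genes, with isotype and with anti-LAIR-1; points are edgeR estimates from 3 libraries per group, bars their 95% intervals, and filled points passed an adjusted p of 0.05. Csk was at -0.59 with isotype and at -0.03 with anti-LAIR-1, while the intervals of every other gene overlapped between both.

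Csk was 228, 245 and 257 CPM with anti-LAIR-1 alone and 254, 219 and 241 CPM with anti-CD3 and anti-LAIR-1, so that the groups overlapped. Its log2 fold change was -0.03, with a 95% interval of -0.21 to 0.14 (edgeR adjusted p = 0.726), and the 3 mice differed by 0.16, -0.16 and -0.09. With upper-quartile scaling, which moved the median of all genes by -0.21 in this comparison, Csk was at -0.24 (edgeR adjusted p = 0.0145), which is close to that shift.

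Inpp5d, SHIP-1, was 26.4, 22.9 and 21.2 CPM with anti-LAIR-1 alone and 17.4, 15.7 and 19.7 CPM with both antibodies. The groups did not overlap. The log2 fold change was -0.42 (SE 0.17, edgeR adjusted p = 0.0280). This call did not hold in DESeq2 (adjusted p = 0.161), nor in edgeR without mouse 1 of anti-LAIR-1 alone (0.122) or without mouse 1 (0.0750) or mouse 2 (0.125) of the libraries with both antibodies. The difference between the 2 responses of Inpp5d was itself tested and is given with the interaction.

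Ptpn6 was 199, 204 and 218 CPM with anti-LAIR-1 alone and 252, 242 and 277 CPM with both antibodies, without overlap. It rose by 0.31 on the log2 scale (SE 0.08, edgeR adjusted p = 0.00213), by 0.34, 0.25 and 0.34 in the 3 mice. With upper-quartile scaling, the estimate was 0.10 with an adjusted p of 0.281 in edgeR. Ptpn11 went from 44.95, 49.4 and 53.6 CPM to 60.4, 61.3 and 54.8 CPM, a log2 fold change of 0.25 that did not pass (edgeR adjusted p = 0.0525). It passed without mouse 3 of the anti-LAIR-1 libraries (edgeR adjusted p = 0.0293) and without mouse 3 of the libraries with both antibodies (0.0273).

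Ptpn7, Ptpn2, Ptpn22 and Pag1 passed under anti-LAIR-1 as well. Ptpn7 rose by 1.34 (SE 0.15), Ptpn2 by 0.75 (0.10) and Ptpn22 by 0.40 (0.07) on the log2 scale, and Pag1 fell by 1.25 (0.20), with adjusted p-values in edgeR of 9.13e-08, 1.91e-06, 8.84e-05 and 1.89e-05. Pag1 was 19.4, 17.0 and 18.2 CPM with anti-LAIR-1 alone and 6.47, 8.78 and 7.84 CPM with both antibodies, without overlap, and the 4 calls held in each of 15 other settings. Ptprc was 844, 767 and 850 CPM with anti-LAIR-1 alone and 945, 883 and 880 CPM with both antibodies, also without overlap, and did not pass (log2 fold change 0.13, 95% interval -0.01 to 0.28, edgeR adjusted p = 0.0913).

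To ask what ligation of LAIR-1 did to the RNA of its own effectors, anti-LAIR-1 was compared with isotype among the stimulated libraries. Csk was higher with anti-LAIR-1, and the other 8 genes did not pass. Among 8531 protein-coding genes, 5.80% passed, 3.93% higher and 1.88% lower. An unadjusted p under 0.05 was reached by 3 of the 9 genes (Csk, Ptpn6 and Inpp5d) and by 18.9% of all. The same 3 genes had groups that did not overlap, higher with anti-LAIR-1, as did 13.1% of all genes, and none was wholly lower, as 11.1% were. The median log2 fold change of the 9 genes was 0.06, against 0.00 for all protein-coding genes.

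Csk was 184, 164 and 194 CPM with anti-CD3 and isotype, and 254, 219 and 241 CPM with anti-CD3 and anti-LAIR-1. Each of the 3 libraries with anti-LAIR-1 was above each isotype library, and the log2 fold change was 0.39, a 1.31-fold difference (SE 0.08, edgeR adjusted p = 0.00809). The 3 mice differed by 0.47, 0.42 and 0.31. Csk passed in 14 of 15 other settings; without mouse 2 of the isotype libraries, the lowest of them, its log2 fold change was 0.32 with an adjusted p of 0.0542 in edgeR.

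**Figure D3:**
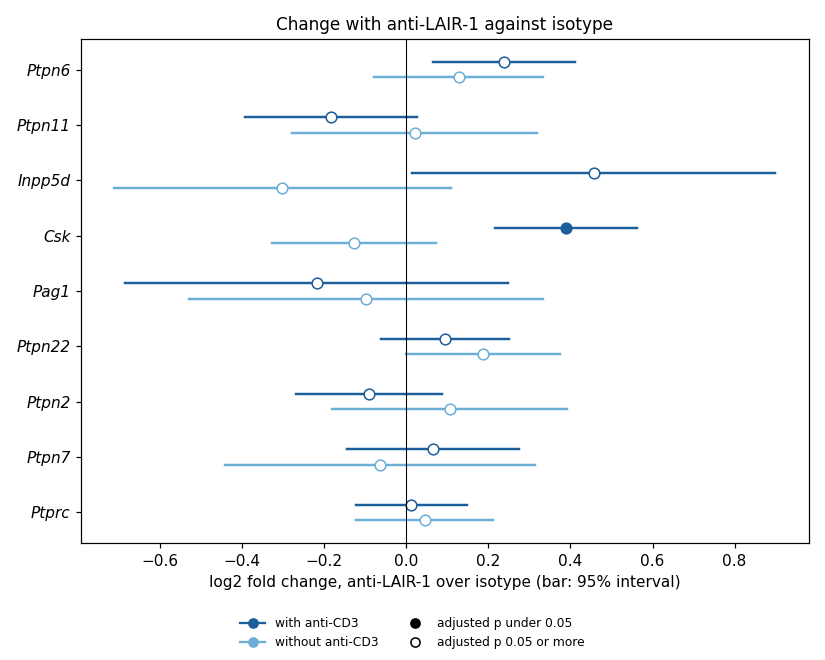
Log2 fold change of anti-LAIR-1 over isotype (horizontal axis) for each of the 9 genes, with and without anti-CD3; points are edgeR estimates from 3 libraries per group, bars their 95% intervals, and filled points passed an adjusted p of 0.05. Csk with anti-CD3, at 0.39, is the filled point, and without anti-CD3 it was at -0.13.

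Of the 2 SHP phosphatases, neither passed. Ptpn6 was 204, 239 and 207 CPM with isotype and 252, 242 and 277 CPM with anti-LAIR-1, a log2 fold change of 0.24 with a 95% interval of 0.07 to 0.41 (unadjusted p = 0.00975, adjusted p = 0.106 in edgeR). The groups did not overlap, and the difference was 0.31 and 0.42 in mice 1 and 3 and 0.02 in mouse 2. Ptpn11 was 60.7, 66.5 and 71.6 CPM with isotype and 60.4, 61.3 and 54.8 CPM with anti-LAIR-1, which gave a log2 fold change of -0.18 with an interval of -0.39 to 0.03 (edgeR adjusted p = 0.329).

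Inpp5d was 15.7, 14.6 and 8.82 CPM with isotype and 17.4, 15.7 and 19.7 CPM with anti-LAIR-1. The estimate of 0.46 on the log2 scale (SE 0.21, edgeR adjusted p = 0.246) came mostly from mouse 3, at 1.117, with 0.14 and 0.10 in mice 1 and 2. Without the isotype library of mouse 3 it was 0.20 (edgeR adjusted p = 0.676). For the remaining 5 genes, the log2 fold change lay between -0.22 for Pag1 and 0.09 for Ptpn22, and each 95% interval included 0. The narrowest of these was that of Ptprc, from -0.12 to 0.15, and the widest that of Pag1, from -0.69 to 0.25.

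Without anti-CD3, anti-LAIR-1 against isotype gave no call among the 9 genes, and 0.00% of 8492 protein-coding genes passed in edgeR (adjusted p under 0.05), while an unadjusted p under 0.05 was reached by 4.30% of them and by none of the 9 genes. DESeq2 also gave 0 genes. Csk was 235, 284 and 278 CPM with isotype and 228, 245 and 257 CPM with anti-LAIR-1, a log2 fold change of -0.13 with a 95% interval of -0.33 to 0.07 (edgeR adjusted p = 0.997). Mice 1, 2 and 3 differed by -0.04, -0.21 and -0.12, and the libraries overlapped. The gene with the smallest unadjusted p was Ptpn22 (0.0504), at 263, 287 and 277 CPM with isotype and 299, 304 and 338 CPM with anti-LAIR-1. This was 0.19 on the log2 scale, with an interval of -0.000341 to 0.37 and an edgeR adjusted p of 0.997. It was the 1 gene of 9 whose groups did not overlap, beside 4.83% of protein-coding genes wholly higher and 4.88% wholly lower. The upper ends of the 9 intervals ran from 0.07 for Csk to 0.39 for Ptpn2, and the lower ends from -0.000341 for Ptpn22 to -0.71 for Inpp5d.

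Whether the effect of anti-LAIR-1 differed with stimulation was tested as the interaction over the 12 libraries. Csk passed, with an effect of anti-LAIR-1 that was 0.52 higher on the log2 scale with anti-CD3 than without it (SE 0.13, 95% interval 0.25 to 0.80, edgeR adjusted p = 0.0350). In this test 2.09% of 8908 protein-coding genes passed, 1.84% in the higher direction and 0.247% in the lower, and 12.2% had an unadjusted p under 0.05, as did Csk and Inpp5d of the 9. By mouse, the Csk value was 0.51, 0.63 and 0.43. The same contrast is the difference between the anti-CD3 responses of Csk under the 2 antibodies, -0.59 and -0.03, and its 2 parts draw on the same 12 libraries as the comparisons above.

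The call for Csk depended on single libraries, although its size did not. It passed in 8 of 8 other settings that kept the 12 libraries, with adjusted p-values of 0.0101 (DESeq2) to 0.0401 (edgeR without TMM), and with the mouse number as a block it was 0.0283 in edgeR. Leaving out 1 library at a time gave log2 values of 0.45 to 0.60, and Csk passed in 4 of those 12 fits. The adjusted p in edgeR was 0.0995 and 0.0758 without mouse 2 and mouse 3 of unstimulated isotype. It was 0.111 and 0.0578 without mouse 1 and mouse 2 of unstimulated anti-LAIR-1. Among stimulated libraries, it was 0.0729 and 0.133 without mouse 1 and mouse 2 of isotype, and 0.101 and 0.0890 without mouse 1 and mouse 3 of anti-LAIR-1.

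None of the other 8 genes passed the interaction test. Inpp5d had the largest value, 0.77 (SE 0.30, 95% interval 0.15 to 1.38, edgeR adjusted p = 0.248), and it was positive in each of the 3 mice, at 0.45, 0.61 and 1.00. For the remaining 7 genes the value lay between -0.20 for Ptpn11 and 0.13 for Ptpn7, and each 95% interval included 0.

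Scaling between libraries does not enter a ratio of 2 genes within 1 library. Csk was therefore set against CD45, the phosphatase that opposes it on Lck, in a comparison chosen after the values were seen. Per 100 counts of Ptprc there were 29.0, 37.9 and 33.8 counts of Csk in unstimulated isotype libraries and 27.0, 31.9 and 30.2 with anti-LAIR-1 alone. With anti-CD3 and isotype there were 21.3, 17.9 and 21.9, and with both antibodies 26.9, 24.8 and 27.4. The isotype libraries with anti-CD3 were thus the lowest of the 4 groups in each mouse. Against Lck itself, its substrate, Csk gave 30.3, 32.9 and 33.1 counts per 100 in unstimulated isotype libraries and 36.1, 29.3 and 34.1 with anti-CD3 and isotype, and these overlapped. With anti-LAIR-1 the ratio to Lck was 29.0, 28.3 and 30.4 without anti-CD3 and 41.7, 35.0 and 32.1 with it. Between the 2 stimulated groups the ranges of this ratio overlapped, unlike those of the ratio to Ptprc. Replacing isotype by anti-LAIR-1 took it from 36.1 to 41.7 in mouse 1 and from 29.3 to 35.0 in mouse 2. In mouse 3 the ratio to Lck went the other way, from 34.1 to 32.1. Lck also fell with anti-CD3 and isotype, by 0.63 on the log2 scale (edgeR adjusted p = 6.08e-07).

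**Figure D4:**
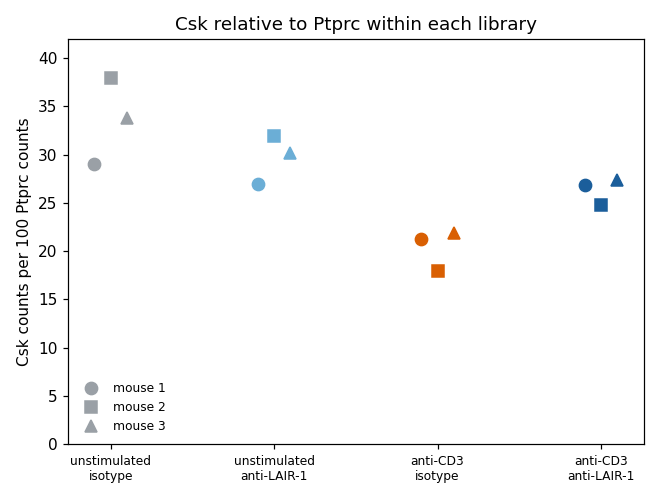
Counts of Csk per 100 counts of Ptprc (vertical axis, from 0) in the 12 libraries by condition; each symbol is 1 mouse. The 3 libraries with anti-CD3 and isotype lie at 17.9 to 21.9, below the 24.8 to 27.4 of those with anti-CD3 and anti-LAIR-1.

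The 9 genes were then placed among other genes of the same pathway, in 5 lists. Of 20 other protein tyrosine phosphatases and related enzymes, 12 were expressed highly enough to be tested for the response to anti-CD3 with isotype. Of these, 4 rose and 7 fell, beside 35.6% of all protein-coding genes higher and 35.7% lower. Ubash3b, which encodes the ZAP-70 phosphatase Sts-1, rose by 2.38 on the log2 scale, and Ptprs by 1.58, while Ptpre changed by -2.35 and Ptpn12 (PTP-PEST) by -1.50. Ptpre had only 8, 5 and 11 counts with anti-CD3 and isotype. With anti-LAIR-1 in place of isotype, Ubash3b rose by 2.16, Ptprs by 1.54, and Ptpre and Ptpn18 changed by -1.28 and -1.25. With anti-CD3 present, none of 13 tested genes of this list passed for anti-LAIR-1 against isotype by edgeR, and none of 9 phosphoinositide phosphatases did. Of all protein-coding genes, 5.80% passed there. Ptpn12 passed in the interaction (0.64, adjusted p = 0.0378 in edgeR), where 2.09% of all protein-coding genes did. Its mean was 32.4 ± 3.45 CPM (SD, n = 3) with anti-CD3 and isotype and 44.2 ± 4.25 CPM with both antibodies. Without anti-CD3 it was 90.1 ± 4.13 CPM with isotype and 78.7 ± 3.56 CPM with anti-LAIR-1. Neither effect of anti-LAIR-1 passed by itself, at 0.43 with anti-CD3 (edgeR adjusted p = 0.0502) and -0.20 without it (0.997).

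Among 11 phosphoinositide phosphatases other than SHIP-1, every gene that passed fell with anti-CD3. Of 9 tested, 6 fell and none rose with anti-CD3 and isotype, beside 35.7% of all protein-coding genes lower and 35.6% higher. The median log2 fold change was -0.87, against -0.01 for all protein-coding genes. Inpp5k changed by -2.20, Inpp5e by -1.02, Synj1 by -0.96 and Ocrl by -0.95 (edgeR adjusted p = 0.0397). Ocrl had few reads, 15, 10 and 12 counts in unstimulated isotype libraries and 11, 11 and 16 with anti-CD3 and isotype. Under anti-LAIR-1, 6 of 9 fell as well, beside 36.0% of all protein-coding genes. Inpp5k was at -2.002, Inpp5e at -1.16, Synj1 at -0.82 and Inpp4b at -0.71, while Ocrl did not pass (-0.36, edgeR adjusted p = 0.363).

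Among 18 adaptors and binding partners of these enzymes, 15 were tested with anti-CD3 and isotype, of which 10 fell and 1 rose. Of all protein-coding genes, 35.7% were lower and 35.6% higher in this comparison. The median log2 fold change was -1.60 for the list and -0.01 for all protein-coding genes. The adaptor SAP (Sh2d1a) changed by -3.89, the Csk-homologous kinase Matk by -3.56, Gab3 by -2.89 and Pstpip1 by -2.27. Few reads lie behind these values in the libraries with anti-CD3 and isotype. Sh2d1a had 8, 6 and 14 counts there, Matk 1, 3 and 3, Gab3 2, 8 and 10, and Pstpip1 8, 15 and 39. Under anti-LAIR-1 10 of 16 fell and 1 rose, beside 36.0% of all protein-coding genes lower and 36.8% higher. Sh2d1a was at -3.19, Matk at -3.16, Sit1 (2, 4 and 5 counts with both antibodies) at -3.08 and Gab3 at -2.95. Matk had 5, 6 and 7 counts with both antibodies, and Gab3 12, 7 and 3. With anti-CD3 present, 2 of 14 were higher with anti-LAIR-1 than with isotype and none was lower. Of all protein-coding genes, 3.93% were higher and 1.88% lower there. The 2 genes of the list were Lax1, an adaptor that dampens antigen receptor signals, at 0.75 (edgeR adjusted p = 0.00148), and Ezr at 0.48 (adjusted p = 0.0102). Ezrin links the cell membrane to actin.

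**Figure D5:**
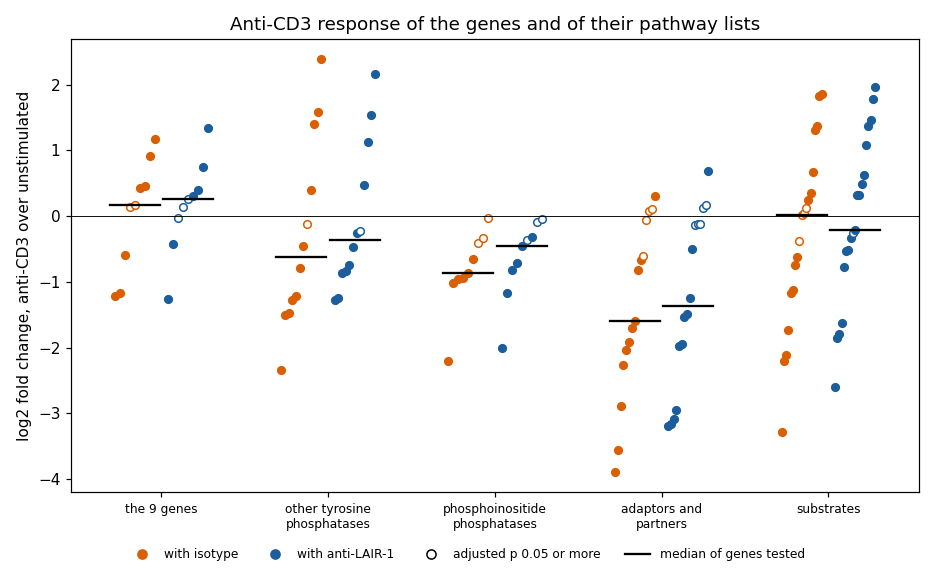
Log2 fold change of anti-CD3 over unstimulated (vertical axis) for each tested gene of the 9 genes and of 4 pathway lists, with isotype and with anti-LAIR-1; filled points passed an adjusted p of 0.05 in edgeR, open points did not, and the black line is the median of the genes tested. With isotype the median was 0.16 for the 9 genes, -0.62 for other tyrosine phosphatases, -0.87 for phosphoinositide phosphatases, -1.60 for adaptors and partners and 0.02 for substrates.

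The substrates of these enzymes went in both directions. Of 19 tested of 20, 7 rose and 8 fell with anti-CD3 and isotype, where 71.3% of all protein-coding genes passed. Lcp2 (SLP-76) rose by 1.86, while Mapk3 (7, 31 and 28 counts with anti-CD3 and isotype) changed by -3.28, Cd247 by -2.21 and Jak1 by -2.11. Under anti-LAIR-1, 9 rose and 9 fell, beside 36.8% of all protein-coding genes higher and 36.0% lower. Zap70 was at 1.97, Mapk3 at -2.60, Cd247 at -1.86 and Jak1 at -1.80. With anti-CD3 present, 6 of 19 were higher and 1 was lower with anti-LAIR-1, beside 3.93% and 1.88% of all protein-coding genes. Those that were higher included chains of the CD3 complex, Cd3g (0.54), Cd3e (0.45) and Cd3d (0.45). In the interaction 3 of 19 were higher and 1 was lower, beside 1.84% and 0.247% of all protein-coding genes. Cd3g (0.58) and Cd3e (0.50) were among the 3 that were higher. Lck was 546 ± 33.0 CPM (SD, n = 3) with anti-CD3 and isotype and 662 ± 78.2 CPM with both antibodies, and did not pass (log2 fold change 0.27, adjusted p = 0.0630 in edgeR).

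Of 14 receptors with inhibitory motifs that bind such phosphatases, 4 were tested with anti-CD3. Pdcd1 (PD-1) rose by 5.98 on the log2 scale with anti-CD3 and isotype, Btla by 1.48 and Cd5 by 1.17, while Pecam1 changed by -3.65. Pdcd1 had 1 to 7 counts in unstimulated libraries and 329 to 703 in stimulated ones. Under anti-LAIR-1, Pdcd1 was at 6.59, Btla at 1.55, Cd5 at 1.15 and Pecam1 at -2.73. With anti-CD3 present, Pecam1 was the 1 of 4 that differed between anti-LAIR-1 and isotype, at 1.00 on the log2 scale (edgeR adjusted p = 0.00424). Of all protein-coding genes, 5.80% passed there. Pecam1 also passed the interaction at 0.89 (edgeR adjusted p = 0.0319), where 2.09% of all did. Without anti-CD3, no gene of the 5 lists passed for anti-LAIR-1 against isotype, as none did among all genes. Lair1 itself had 0 to 7 counts per library in the 12 libraries and was too low to be tested.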

How the data were processed

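RNA of 12 libraries (3 mice in each of 4 conditions) was sequenced by the study with an adapted CEL-seq protocol. The authors deposited raw read counts per gene symbol, made from the 60-cycle second read with BWA MEM against mm10 transcripts and without ambiguous alignments; versions, and whether molecular identifiers were used, are not given in the sources used here. Of 14323 symbols, 14261 matched GENCODE M21 (GRCm38) or RefSeq names and 13149 were protein coding. As in the study, other genes were left out after the test.

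Groups were compared with edgeR 4.0.16 in R 4.3.3 (filterByExpr, TMM, quasi-likelihood F-test, Benjamini-Hochberg adjustment over all genes tested, threshold 0.05), on the 6 libraries of 2 groups, or on 12 for the interaction. Standard errors are the log2 fold change over the square root of F, and intervals are 95%. Levels are CPM with TMM factors over 12 libraries, and differences in single mice are of log2 CPM with a prior count of 2. DESeq2 1.42.0 was an alternative. With 3 libraries against 3, an exact permutation test cannot go below 0.1, so that none was used. The fits were tested on simulated counts for each comparison. The main fits had no term for the mouse, so that their p-values, standard errors and intervals do not use the pairing by mouse. Alternatives were other scalings, filters and fits, a mouse block and each library left out.

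Libraries of the same number come from the same mouse, by the labels. After subtraction of group means, same-mouse pairs of libraries had a mean correlation of 0.0429 over 9245 genes, against -0.0215 for other pairs. Libraries of 1 group differed by 3.81 to 5.62 times sampling variance, so that none was a copy. No other annotated gene covers the 3′ end of any of the 9 genes.

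The 9 genes, the 5 pathway lists and the marker lists were chosen with earlier results of these data known. Named from the lists were up to 4 genes per list and comparison with the largest absolute log2 fold change among those that passed and moved the same way in 3 mice, and Lair1. Some genes that this rule names are not reported here. Lck and the ratios of genes were chosen after their values were seen, as were the motifs. For each of the 9 genes that passed in a comparison with anti-CD3, the 3 genes most like it over the 12 libraries were named.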

Additional observations from a re-analysis of the deposited data

Results flagged for a closer look

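For Csk, anti-LAIR-1 acted differently on stimulated and unstimulated cells, by 0.52 on the log2 scale in edgeR's interaction term over the 12 libraries (adjusted p = 0.0350, positive in 3 of 3 mice). This test of the difference between both effects is what set the gene apart. Over the other settings the value ran from 0.45 to 0.60 and the adjusted p from 0.0101 to 0.133.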

How the results depend on the processing

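Over all protein-coding genes, the count that passed for anti-LAIR-1 with anti-CD3 was 495, and 208 in DESeq2 when mice were entered as a replicate block. It was 286 to 418 with 1 library left out, and fell to 286, 307 and 327 without mouse 2 of isotype, mouse 2 of anti-LAIR-1 and mouse 3 of anti-LAIR-1. With the block in edgeR it was 537, against 0 without anti-CD3, 5957 and 6284 for anti-CD3 with isotype and with anti-LAIR-1, and 211 for the interaction. The block changed no call among the 9 genes in edgeR. In DESeq2 it ended those of Ptprc for anti-CD3 with isotype (adjusted p = 0.0853) and with anti-LAIR-1 (0.0626), and Inpp5d for anti-CD3 with anti-LAIR-1 missed the threshold with it (0.269) as without it. Without anti-CD3, anti-LAIR-1 gave 3 genes with no filter on low counts and 0 to 1 with 1 library left out, none of them among the 9. The interaction gave 186 genes, and 100 to 179 with 1 library left out. It fell by more than 1.5 times without mouse 2 of unstimulated isotype (115), mice 1 and 3 of unstimulated anti-LAIR-1 (122 and 116), mice 1 and 2 of anti-CD3 with isotype (123 and 108) and mouse 3 of both antibodies (100). Of the 9 genes, 0 to 1 then passed for anti-LAIR-1 with anti-CD3, and 0 to 1 in the interaction, in each case Csk. In 1 fit over 12 libraries, 79.7% of the genes that passed for anti-LAIR-1 with anti-CD3 were higher, against 67.7%.

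Signs turned in upper-quartile scaling for anti-CD3 with isotype (Ptpn6 -0.013, Ptprc -0.044) and with anti-LAIR-1 (Ptprc -0.076). Csk under anti-CD3 with anti-LAIR-1 was at 0.019 in DESeq2 and 0.018 in DESeq2 with the block, at 0.058 with no filter, and at -0.072 to 0.043 with 1 library left out. For anti-LAIR-1 with anti-CD3, leaving out 1 library gave -0.0059 to 0.14 for Ptpn7 and -0.021 to 0.033 for Ptprc. Without anti-CD3 it gave -0.047 to 0.11 for Ptpn11, -0.17 to 0.035 for Pag1 and -0.26 to 0.081 for Ptpn7. In the interaction it gave -0.25 to 0.0059 for Pag1, -0.011 to 0.33 for Ptpn7 and -0.075 to 0.0073 for Ptprc. The cause was not tested.

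Among single genes, Inpp5d for anti-CD3 with anti-LAIR-1 also missed the threshold with no filter (adjusted p = 0.117) and in 1 fit over 12 libraries (0.0667). Ptpn11 passed there with size factors of DESeq2 (0.0389), no filter (0.0118) and 12 libraries in 1 fit (0.0474). Ptprc passed for anti-CD3 with isotype with no filter (0.0316) and 12 libraries (0.0461), and with anti-LAIR-1 in DESeq2 (0.0214), with no filter (0.00544) and without mouse 3 of both antibodies (0.0418). Ptpn6 passed for anti-CD3 with isotype with no filter (0.0387). Setting library sizes without TMM was chosen after seeing the data. Low counts limit Inpp5d and Pag1, and with 3 mice per group small changes of the others remain within their intervals.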

Other observations

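Over the 12 libraries, the genes whose log2 CPM followed Csk most closely were Ostm1 (Pearson r = 0.942), Ubald1 (0.915) and Cd3e (0.908), a chain of the CD3 complex that anti-CD3 binds. These are descriptions over 12 libraries that fall into 4 conditions and 3 mice, among 9245 genes. For Inpp5d they were E430025E21Rik (0.922), Trim59 (0.921) and Usp47 (0.921), and for Pag1 Insr (0.983), Ms4a6c (0.974) and Capn10 (0.974). They were Mogs (0.996), Atad3a (0.994) and Slc25a33 (0.993) for Ptpn2, Exosc10 (0.993), Atp5g3 (0.989) and Sfpq (0.988) for Ptpn7, and Raly (0.976), Exosc5 (0.965) and Wbscr16 (0.959) for Ptpn22. For Ptpn11 they were Gatc (0.945), Ppip5k2 (0.944) and Snhg12 (0.943), and for Ptpn6 5830415F09Rik (0.956), Srp9 (0.912) and Fam192a (0.892).

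Among the 9 genes, Pag1 ran against Ptpn7 (r = -0.942), Ptpn2 (-0.925) and Ptpn22 (-0.919), and Ptpn2 ran with Ptpn7 (0.916). Csk and Pag1 were less closely related (0.545), and Ptpn6 and Ptpn11 had an r of 0.413. Per 100 counts of Ptpn11 there were 335, 359 and 289 counts of Ptpn6 under anti-CD3 plus isotype and 418, 395 and 505 under both antibodies, against 327, 403 and 458 in unstimulated isotype libraries and 442, 412 and 407 with anti-LAIR-1 alone. Per 100 counts of Ptpn22, whose product binds Csk, there were 43.1, 44.9 and 52.2 counts of Csk with anti-CD3 and isotype, 62.1, 53.7 and 56.1 with both antibodies, 89.5, 98.9 and 101 in unstimulated isotype libraries and 76.2, 80.5 and 75.9 with anti-LAIR-1 alone. These ratios were chosen after the values were seen.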
